A study of Homo sapiens with 12 samples.

Results

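Amino acid transporters are membrane proteins that carry amino acids and related solutes into, out of and between compartments of a cell. The genes described here were all those whose symbol begins with SLC1A, SLC3A, SLC6A, SLC7A, SLC36A, SLC38A or SLC43A followed by a digit, 60 of the 19973 genes in the table. The rule uses symbols and no measured value. They comprised 7 SLC1, 2 SLC3, 19 SLC6, 14 SLC7, 4 SLC36, 11 SLC38 and 3 SLC43 genes. The symbol rule also took in SLC7A6OS, the gene that overlaps SLC7A6 on the opposite strand and is not itself a transporter. RNA was sequenced from human prostate cancer cells in 4 groups of 3 libraries. C4-2 cells, a castration-resistant derivative of the LNCaP line, carried a lentivirus expressing ARv7 (lv-ARv7) or a vector control (lv-control). 22Rv-1 cells, a line from the CWR22R xenograft, carried a lentivirus with a short hairpin for ARv7 depletion (lv-shARv7) or a vector control (lv-shcontrol). All 4 groups had thus been infected with lentivirus, and the C4-2 cells with ARv7 and the depleted 22Rv-1 cells were obtained by puromycin selection.

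As background, these families divide the work of amino acid supply. SLC7 light chains such as LAT1 and xCT reach the cell surface only when bound to the SLC3A2 heavy chain, and they exchange one amino acid for another. SLC38 and several SLC1 and SLC6 carriers use the sodium gradient to load the cell, which provides the amino acids that exchangers trade away. SLC43A1 and SLC43A2 are facilitators of neutral amino acids, and SLC36A1 moves small amino acids with protons, in part at lysosomes. The SLC6 family also carries creatine, taurine, betaine and transmitters. In prostate cancer LAT1 (SLC7A5) and LAT3 (SLC43A1) are known as leucine carriers, and ASCT2 (SLC1A5) as a glutamine carrier.

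Total counts were 12318529 to 14672948 per library. Levels below are CPM (counts scaled to library size, with TMM factors over the 12 libraries) or FPKM where genes are set side by side, since FPKM is scaled to gene length. All 9 prostate luminal markers examined had counts in every group, and they summed to 9012 to 9213 CPM in C4-2 ARv7 and 4953 to 5407 CPM in C4-2 control libraries, and to 3571 to 3613 CPM in 22Rv-1 shARv7 and 4000 to 4047 CPM in 22Rv-1 shcontrol libraries. Basal, endothelial, erythroid and leukocyte markers summed to at most 13.1 CPM in any library, and 7 fibroblast markers to at most 46.7 CPM. Neuroendocrine markers summed to 27.2 to 33.6 CPM in C4-2 ARv7 and 50.4 to 62.6 CPM in C4-2 control libraries, and to 333 to 351 CPM in 22Rv-1 shARv7 and 550 to 618 CPM in 22Rv-1 shcontrol libraries, most of it ENO2. Among those markers INSM1 was at 0 in both C4-2 groups. The part of these markers in the results was not tested. C4-2 control replicate 3 stood apart from replicates 1 and 2, its counts differing from theirs with chi-square values over their degrees of freedom of 12.31 and 6.85, and no other replicate pair exceeded 4.64. Cells were plated in triplicate dishes and the number of selected lines or clones is not stated in the labels, so p-values measure only the spread between dishes. In RNA from a whole dish, fewer cells with a transcript and less of it per cell cannot be told apart. Counting strand is not given either, so reads of overlapping genes could not be separated. Among the genes discussed this touches SLC1A1, SLC1A5, SLC6A6, SLC6A8, SLC6A9, SLC7A6, SLC38A6, SLC38A9 and SLC43A3. SLC7A5 and SLC6A8 also have near-identical partial pseudogene copies, and how shared reads were assigned is not given.

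Of the 60 genes, 7 had no count in any library, namely SLC1A6, SLC6A2, SLC6A5, SLC6A14, SLC7A3, SLC36A2 and SLC38A8. Enough counts for a test in at least 1 comparison were present for 42, and the highest level of the other 18 in any library was 1.22 CPM. Besides those without counts they included SLC1A7, SLC3A1, SLC6A7, SLC6A18, SLC6A19, SLC7A4, SLC7A10, SLC7A13, SLC7A14 and SLC36A3. The summed FPKM of all 60 was 632 ± 5.81 in C4-2 ARv7 cells and 742 ± 7.02 in C4-2 control cells, and 1254 ± 14.7 in 22Rv-1 shARv7 cells and 1600.2 ± 37.2 in 22Rv-1 shcontrol cells (mean ± SD, n = 3, as for all means given with ±). In C4-2 the highest gene was SLC38A2, a sodium-coupled carrier of small neutral amino acids, at 112 ± 3.54 FPKM with ARv7 and 156 ± 17.6 FPKM in control cells. In 22Rv-1 it was SLC7A5, at 473 ± 15.7 FPKM after depletion and 786 ± 39.95 FPKM in shcontrol cells, where it alone made up 49.1 ± 1.39% of the families' summed FPKM. SLC3A2, SLC38A1, SLC1A5 and SLC7A1 were among the 8 highest in all 4 groups.

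**Figure D1:**
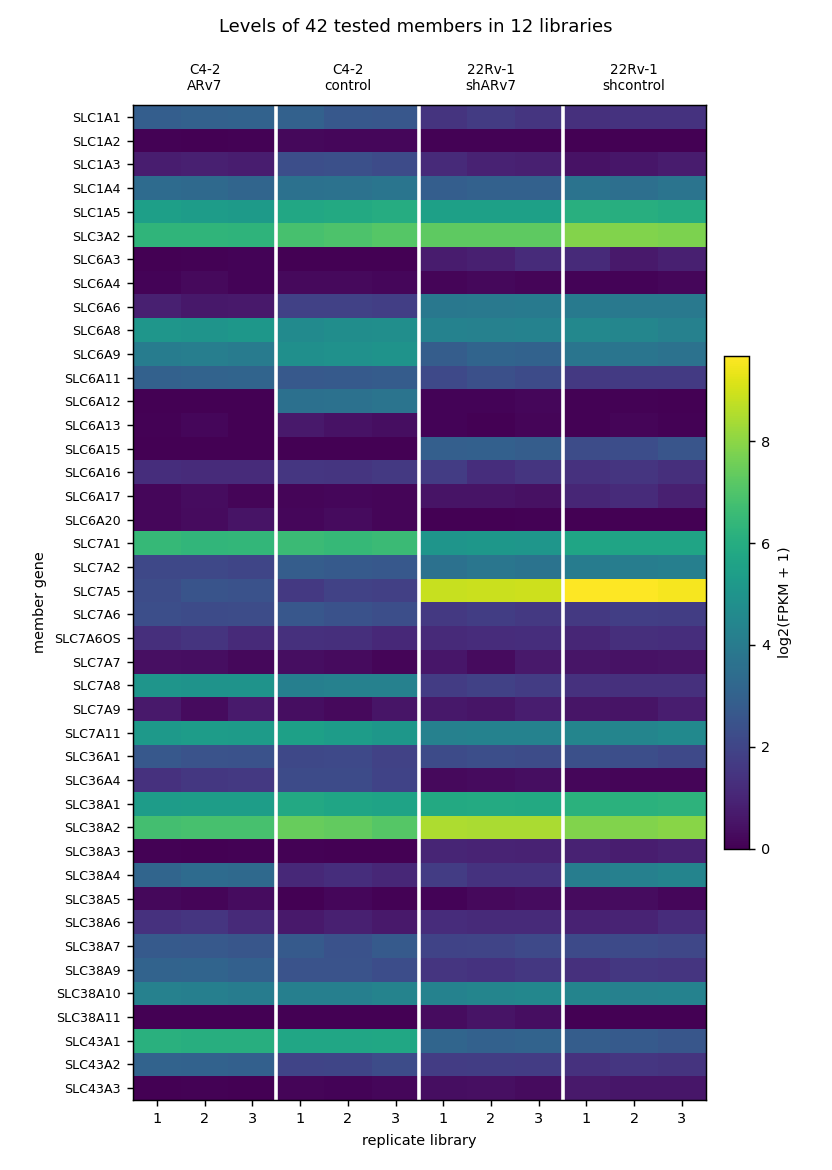
Levels of the 42 tested genes in the 12 libraries, as log2(FPKM + 1) in colour, with genes in rows and libraries in columns grouped by cell line and virus. SLC7A5 is bright in the 6 libraries of 22Rv-1 and dark in the 6 of C4-2, SLC6A12 is above background in the 3 C4-2 control libraries, and replicates of a group look alike.

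In C4-2 cells, 36 of the 60 genes could be tested. ARv7 cells had 10 of them higher and 18 lower than control cells at an edgeR adjusted p under 0.05, and 8 did not pass. Of all 12783 genes tested, 29.6% were higher and 29.5% lower (59.1% in all), so the transporters' count higher was near the background and their count lower above it. The transporters' median log2 change was -0.20, against 0.005 over all genes. Among the changes of at least 2-fold, 2 genes were higher (SLC38A4 and SLC38A6) and 7 lower (SLC6A12, SLC6A13, SLC1A3, SLC1A2, SLC6A6, SLC6A9 and SLC7A2), beside 8.52% and 4.73% of all genes. SLC1A2, SLC6A4, SLC6A12 and SLC6A13 passed the expression filter only through the control group, where they are high, so they had to lean one way. With total counts and no scaling factor the median of all genes moved to 0.15, 10 transporters were higher and 16 lower, and 67.1% of all calls were higher, against an even split with TMM. Without control replicate 3 the counts were 10 and 18.

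In 22Rv-1 cells, 38 of the 60 could be tested. Depletion of ARv7 left 10 higher and 13 lower than in shcontrol cells, and 15 did not pass. Over all 13459 genes tested, 23.9% were higher and 24.1% lower. The transporters' count higher was thus near the background, and their count lower was above it. Their median log2 change was -0.01, against 0.01 over all genes. SLC38A11, SLC1A2 and SLC36A4 rose at least 2-fold, and SLC38A4, SLC6A17 and SLC43A3 fell at least 2-fold, beside 5.6% of all genes higher and 2.04% lower by that much. SLC1A2 and SLC38A11 passed the filter only through the shARv7 group, where they are high, so they had to lean one way. SLC38A5 passed it with few reads, 3, 9 and 14 in shARv7 and 13, 13 and 8 in shcontrol libraries.

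The C4-2 and 22Rv-1 comparisons share no library, and 32 of the genes were tested in both. Lowering in both comparisons was found for 8 of them, SLC1A4, SLC1A5, SLC3A2, SLC6A9, SLC7A1, SLC7A2, SLC7A11 and SLC38A1, although ARv7 was added in C4-2 and depleted in 22Rv-1. The same pattern held for 7.14% of 12080 genes tested in both. Another 4 were higher in both (SLC6A11, SLC7A8, SLC43A1 and SLC43A2), a pattern of 6.99% of genes. Opposite changes that followed ARv7 were found for 3, SLC38A4, SLC7A5 and SLC6A8, which rose when ARv7 was added and fell when it was depleted, as did 9.43% of genes. The reverse, lower with ARv7 and higher after depletion, was found for SLC1A2, SLC1A3, SLC36A4 and SLC38A2, and for 7.12% of genes. In all, 7 of the 32 moved in opposite directions and 12 in the same direction. SLC36A1, SLC38A6 and SLC38A9 were higher and SLC6A6, SLC6A16, SLC7A6 and SLC38A10 lower in C4-2 without passing in 22Rv-1, and SLC6A17 was lower in 22Rv-1 without passing in C4-2. SLC1A1, SLC7A6OS, SLC7A7, SLC7A9 and SLC38A7 passed in neither. Of the genes tested in C4-2 alone, SLC6A12 and SLC6A13 were lower and SLC6A4 and SLC6A20 did not pass. Of those tested in 22Rv-1 alone, SLC6A15 and SLC38A11 were higher, SLC43A3 was lower and SLC6A3, SLC38A3 and SLC38A5 did not pass.

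**Figure D2:**
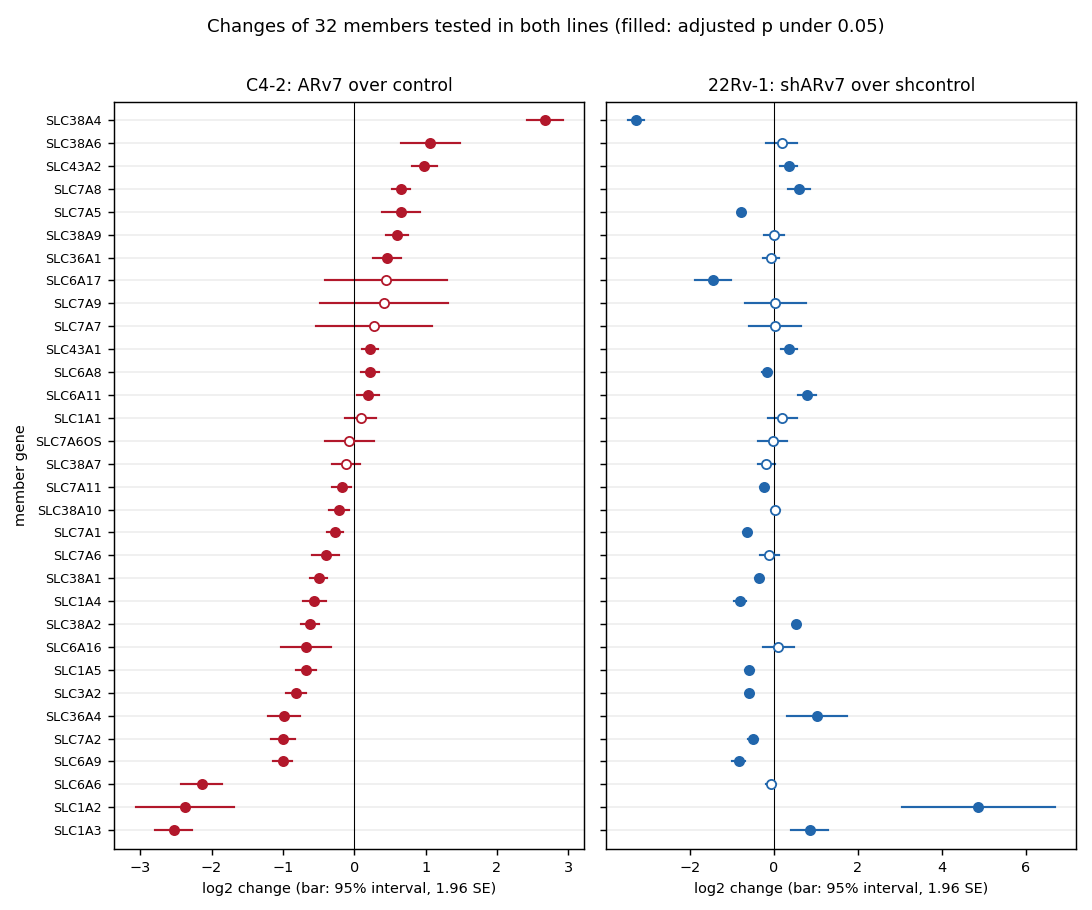
Log2 changes of the 32 genes tested in both lines, C4-2 ARv7 over C4-2 control on the left and 22Rv-1 shARv7 over 22Rv-1 shcontrol on the right, ordered by the C4-2 change, with bars for the 95% interval and filled points for an edgeR adjusted p under 0.05. SLC38A4 is at the top with a change of 2.67 on the left and -3.28 on the right, while SLC3A2, SLC6A9 and SLC7A2 lie left of 0 in both panels.

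Promoters of SLC3A2, SLC7A1 and SLC38A1, which fell in both lines, and of SLC38A11 are shown because they hold letters searched for as response elements. RefSeq promoter windows (GRCh38.p14, 250 bases before to 50 after the start) were found for 45 of the 60 genes. TGATGNAA, the core of the C/EBP-ATF element through which amino acid shortage acts on many genes, was searched on both strands and was present in 4 of the 45 (SLC1A3, SLC38A1, SLC3A2 and SLC7A1), or 8.89%, against 3.67% of 27305 promoters. Of these 4, SLC38A1, SLC3A2 and SLC7A1 fell in both lines and SLC1A3, whose promoter is not printed, moved in opposite directions. SLC1A4, SLC1A5, SLC6A9, SLC7A2 and SLC7A11 also fell in both lines and were not among the matches. Whether the letters go with the falls was not tested. The palindromic androgen response element, searched likewise, was present in SLC38A11 alone, 2.22% of the 45 against 0.388% of all. TGGAAANN, the core of the tonicity element, was present in 10 of the 45, or 22.2%, against 21.0% of all. In the sequences below capitals mark TGATGNAA, or its reverse complement in SLC3A2, and in SLC38A11 the androgen response element. The matches begin at position 38 from the start in SLC3A2, 8 in SLC7A1, -4 in SLC38A1 and -104 in SLC38A11. RefSeq's start lies at the table's gene start for SLC7A1 and SLC38A11, and 25.6 kb and 3.5 kb inside the gene for SLC3A2 and SLC38A1, so other starts of those genes are not covered. A match of letters does not show that a factor binds.
SLC3A2 chr11:62881449-62881748, strand plus: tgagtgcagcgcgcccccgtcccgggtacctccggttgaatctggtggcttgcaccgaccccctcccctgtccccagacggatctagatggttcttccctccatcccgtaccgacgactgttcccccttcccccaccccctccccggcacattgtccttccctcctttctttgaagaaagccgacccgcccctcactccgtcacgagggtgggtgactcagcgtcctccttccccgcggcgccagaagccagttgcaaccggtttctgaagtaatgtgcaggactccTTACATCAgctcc
SLC7A1 chr13:29595639-29595938, strand minus: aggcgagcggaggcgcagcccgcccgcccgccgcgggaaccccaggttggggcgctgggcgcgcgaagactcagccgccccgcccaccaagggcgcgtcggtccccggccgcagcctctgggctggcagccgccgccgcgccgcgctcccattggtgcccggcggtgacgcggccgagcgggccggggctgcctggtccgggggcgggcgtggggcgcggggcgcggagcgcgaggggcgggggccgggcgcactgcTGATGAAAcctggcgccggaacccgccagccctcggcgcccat
SLC38A1 chr12:46266467-46266766, strand minus: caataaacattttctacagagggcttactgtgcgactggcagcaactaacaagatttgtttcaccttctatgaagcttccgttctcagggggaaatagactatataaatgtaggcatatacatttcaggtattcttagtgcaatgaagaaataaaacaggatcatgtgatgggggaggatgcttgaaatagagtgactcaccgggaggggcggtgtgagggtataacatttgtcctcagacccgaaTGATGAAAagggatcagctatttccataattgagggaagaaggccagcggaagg
SLC38A11 chr2:164955476-164955775, strand minus: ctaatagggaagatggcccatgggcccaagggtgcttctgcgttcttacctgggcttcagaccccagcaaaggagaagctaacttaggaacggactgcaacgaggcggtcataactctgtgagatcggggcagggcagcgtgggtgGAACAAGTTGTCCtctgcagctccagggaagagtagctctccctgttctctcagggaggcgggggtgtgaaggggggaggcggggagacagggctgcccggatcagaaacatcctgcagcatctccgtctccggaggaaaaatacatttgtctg

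SLC7A5 and SLC3A2 together form the large neutral amino acid exchanger, and they differed in how they moved. SLC7A5 encodes LAT1, which brings in leucine, phenylalanine and tryptophan (chromosome 16, 87830023 to 87869507, minus strand, GRCh38). It had 17.6, 22.2 and 20.6 CPM in C4-2 ARv7 libraries, against 10.1, 14.1 and 13.9 CPM in C4-2 control libraries. All 3 ARv7 libraries were above all 3 controls, with a log2 change 0.65 ± 0.14 (SE), edgeR adjusted p = 0.000444. In 22Rv-1 it had 2066, 2143 and 2191 CPM after depletion, against 3795, 3781 and 3444 CPM in shcontrol libraries. Again the groups did not overlap, and the fall was 1.72-fold (log2 change -0.78 ± 0.04 (SE), edgeR adjusted p = 1.13e-31). SLC3A2, the heavy chain 4F2hc or CD98 (chromosome 11, 62856102 to 62888875, plus strand), went lower in both comparisons. Its C4-2 ARv7 libraries had 409, 402 and 389 CPM, against 619, 692 and 788 CPM in control libraries. The lowest control was far above the highest ARv7 library, and the level was 1.76-fold lower with ARv7 (log2 change -0.82 ± 0.07 (SE), edgeR adjusted p = 6.11e-09). After depletion in 22Rv-1 it had 756, 741 and 741 CPM, against 1178, 1143 and 1071 CPM in shcontrol libraries, again with no overlap and 1.51-fold lower (log2 change -0.59 ± 0.04 (SE), edgeR adjusted p = 4.14e-22).

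The other carriers of system L, the route for large neutral amino acids, rose in both comparisons. SLC43A1 (LAT3) had 242, 233 and 228 CPM in C4-2 ARv7 libraries, against 194, 195 and 209.8 CPM in control libraries, which did not overlap (log2 change 0.22 ± 0.06 (SE), edgeR adjusted p = 0.00288). It had 26.4, 23.5 and 24.9 CPM in 22Rv-1 shARv7 libraries, against 21.3, 19.9 and 17.4 CPM in shcontrol libraries, also without overlap (log2 change 0.36 ± 0.10 (SE), edgeR adjusted p = 0.0023). SLC7A8 (LAT2), a light chain with a broad range of neutral amino acids, had 190.0, 178 and 176 CPM with ARv7 and 107, 115 and 121 CPM in C4-2 control cells, 1.58-fold higher (edgeR adjusted p = 3.22e-08). In 22Rv-1 it had 13.3, 15.3 and 13.1 CPM after depletion and 9.25, 8.97 and 9.15 CPM in shcontrol cells, 1.52-fold higher (edgeR adjusted p = 9.45e-05). SLC43A2 (LAT4) had 77.5, 76.0 and 70.5 CPM in C4-2 ARv7 libraries, against 33.6, 35.4 and 43.95 CPM in control libraries. Every ARv7 library was far above every control (log2 change 0.98 ± 0.09 (SE), edgeR adjusted p = 1.59e-08). In 22Rv-1 SLC43A2 also rose (log2 change 0.35), with 23.0, 23.4 and 23.2 CPM after depletion and 16.4, 19.96 and 18.3 CPM in shcontrol cells (edgeR adjusted p = 0.00306). SLC43A3, a purine carrier rather than an amino acid one, was at 1.23, 1.39 and 0.882 CPM after depletion and 2.67, 2.24 and 2.2 CPM in 22Rv-1 shcontrol cells (edgeR adjusted p = 0.0106), a call lost without shARv7 replicate 3 (adjusted p = 0.0596) or shcontrol replicate 1 (0.053).

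System L had a different make-up in each line, in the control cells too, and its shares differed far less between the groups of a line than between the lines. By FPKM, SLC43A1 held 61.5 ± 0.134% of the summed level of SLC7A5, SLC7A8, SLC43A1 and SLC43A2 in C4-2 ARv7 cells and 69.1 ± 1.11% in C4-2 control cells, and SLC7A8 held 28.05 ± 0.417% and 23.3 ± 0.49%. SLC7A5 was only 3.92 ± 0.53% with ARv7 and 3.25 ± 0.489% in control cells. In 22Rv-1 SLC7A5 was 97.5 ± 0.126% after depletion and 98.9 ± 0.00693% in shcontrol cells. The summed FPKM of the 4 genes was 109 ± 2.91 in C4-2 ARv7 and 75.2 ± 1.86 in C4-2 control cells, and 485 ± 15.4 in 22Rv-1 shARv7 and 795 ± 40.4 in 22Rv-1 shcontrol cells. Within each line the 2 groups did not overlap in that sum, which was higher with ARv7 in C4-2 and lower after depletion in 22Rv-1.

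**Figure D3:**
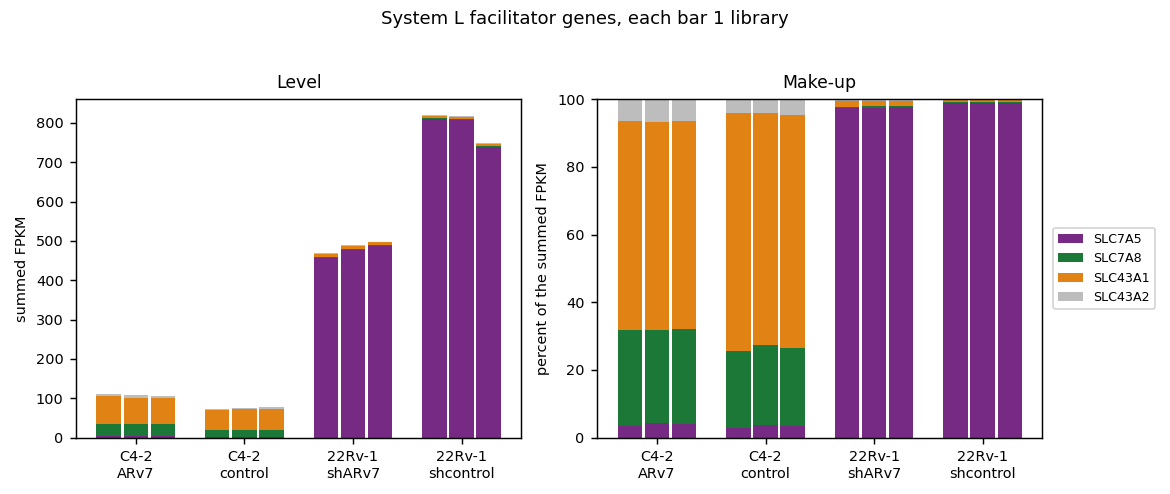
Left, summed FPKM of the system L genes SLC7A5, SLC7A8, SLC43A1 and SLC43A2 with each bar 1 library, and right, the percent of that sum held by each gene. SLC43A1 and SLC7A8 fill most of the C4-2 bars, and SLC7A5 takes nearly all of the 22Rv-1 bars at a much higher total.

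The heavy chain and its light chains were also out of step. The light chains that pair with SLC3A2 (SLC7A5, SLC7A6, SLC7A7, SLC7A8, SLC7A10 and SLC7A11) summed to 76.9 ± 1.02 FPKM in C4-2 ARv7 cells, where SLC3A2 had 78.3 ± 1.67 FPKM. In C4-2 control cells they summed to 63.7 ± 4.84 FPKM beside 125 ± 11.6 FPKM of SLC3A2. In 22Rv-1 they summed to 497 ± 15.95 FPKM after depletion and 811 ± 38.3 FPKM in shcontrol cells, beside 153 ± 1.14 and 224 ± 10.0 FPKM of SLC3A2 in those groups. SLC3A2 was thus above the sum of its light chains in C4-2 control cells, level with it in C4-2 ARv7 cells and below it in 22Rv-1. SLC7A11, the cystine and glutamate exchanger xCT, was the largest light chain in C4-2, with 49.4 ± 1.69% of the sum with ARv7 and 61.0 ± 3.19% in control cells. SLC7A11 had 347, 379 and 363 CPM in C4-2 ARv7 libraries, against 445, 413 and 365 CPM in control libraries, and the groups overlapped. Its C4-2 call (log2 change -0.18 ± 0.07 (SE), edgeR adjusted p = 0.0301) was lost with total counts (adjusted p = 0.71), and without ARv7 replicate 1 or 3 or control replicate 1 or 2 (adjusted p from 0.0824 to 0.151). After depletion it had 166, 168 and 169 CPM, against 189.9, 189.6 and 214 CPM in 22Rv-1 shcontrol cells (log2 change -0.24 ± 0.05 (SE), edgeR adjusted p = 0.000102). SLC7A6 (y+LAT2), which exchanges arginine for glutamine, was lower with ARv7 in C4-2 (log2 change -0.40, edgeR adjusted p = 0.00133) and did not pass in 22Rv-1 (log2 change -0.11, 95% interval -0.34 to 0.11).

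Among the cationic amino acid transporters of the CAT type, both genes that could be tested, SLC7A1 and SLC7A2, fell in both lines. SLC7A1 (CAT1), the main arginine and lysine carrier of most cells, had 662, 627 and 635 CPM in C4-2 ARv7 libraries, against 766, 726 and 815 CPM in control libraries. The groups did not overlap but lay close (log2 change -0.27 ± 0.06 (SE), edgeR adjusted p = 0.000481), and limma on log2(FPKM + 1) gave an adjusted p of 0.0573. The 22Rv-1 groups did not overlap either, with 236, 242 and 241 CPM after depletion, against 377, 375 and 369.8 CPM in shcontrol libraries (log2 change -0.64 ± 0.05 (SE), edgeR adjusted p = 1.64e-20). SLC7A2 (CAT2), a related arginine carrier, had 25.4, 25.4 and 23.4 CPM with ARv7 and 52.3, 47.8 and 47.3 CPM in C4-2 control cells, 2.0-fold lower (edgeR adjusted p = 6.51e-09). It had 85.1, 95.9 and 88.7 CPM after depletion and 122, 126 and 133 CPM in 22Rv-1 shcontrol cells, 1.41-fold lower (edgeR adjusted p = 3.22e-11). SLC7A3 had no counts, and SLC7A4 and SLC7A14 were too low to test.

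Of the SLC38 family, the sodium-coupled carriers of neutral amino acids, SLC38A4 had the largest changes of the 3 genes that followed ARv7 in both lines. SLC38A4 encodes SNAT4, known from liver and placenta (chromosome 12, 46764761 to 46832408, minus strand). In C4-2 ARv7 libraries it had 32.1, 39.1 and 36.5 CPM, against 5.17, 6.34 and 5.2 CPM in control libraries. Every ARv7 library was far above every control, 6.38-fold on average (log2 change 2.67 ± 0.13 (SE), edgeR adjusted p = 8.64e-13). Depleted 22Rv-1 libraries had 9.0, 6.6 and 6.65 CPM, against 66.3, 72.1 and 78.4 CPM in shcontrol libraries. The fall was 9.72-fold with no overlap (log2 change -3.28 ± 0.10 (SE), edgeR adjusted p = 7.9e-43). Its share of the families' summed FPKM was small throughout, 1.38 ± 0.142% in C4-2 ARv7 cells and 1.11 ± 0.122% in 22Rv-1 shcontrol cells, the groups where it was high.

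SLC38A4 lies on chromosome 12 beside SLC38A2 and SLC38A1, all on the minus strand and with no other gene of the table between them. SLC38A1 and SLC38A2 are 88.2 kb apart, and SLC38A2 and SLC38A4 392 kb. The 3 neighbours moved differently. SLC38A2 (SNAT2), which cells induce when amino acids run short, had 696, 735 and 732 CPM in C4-2 ARv7 libraries, against 1176, 1134 and 995 CPM in control libraries, and was lower without overlap (log2 change -0.62 ± 0.07 (SE), edgeR adjusted p = 9.33e-08). In 22Rv-1 it had 2187, 2121 and 2132 CPM after depletion, against 1457, 1454 and 1582 CPM in shcontrol libraries, and was higher without overlap (log2 change 0.52 ± 0.04 (SE), edgeR adjusted p = 6.74e-21). SLC38A2 thus moved against ARv7 in both lines, the reverse of SLC38A4. SLC38A1 (SNAT1), a glutamine carrier, fell in both. It had 391, 402 and 406 CPM in C4-2 ARv7 libraries, against 598, 548 and 538 CPM in control libraries, with no overlap (log2 change -0.50 ± 0.06 (SE), edgeR adjusted p = 4.45e-07). It had 553, 554 and 549.7 CPM after depletion and 698, 698 and 739 CPM in 22Rv-1 shcontrol cells (log2 change -0.36 ± 0.04 (SE), edgeR adjusted p = 1.04e-11).

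The remaining SLC38 genes were below SLC38A1 and SLC38A2 in FPKM in all 4 groups. SLC38A9, the lysosomal arginine sensor that signals to mTORC1, had 64.2, 66.5 and 59.96 CPM in C4-2 ARv7 libraries, against 42.9, 43.7 and 38.05 CPM in control libraries, 1.52-fold higher without overlap (edgeR adjusted p = 2.41e-06). It did not pass in 22Rv-1, where the 95% interval of its log2 change was -0.23 to 0.23. SLC38A6, an orphan of the family, had 8.0, 9.19 and 6.24 CPM with ARv7 and 3.13, 4.57 and 3.42 CPM in C4-2 control cells (log2 change 1.07 ± 0.21 (SE), edgeR adjusted p = 0.000221), and did not pass in 22Rv-1. SLC38A10 was lower by 0.22 on the log2 scale in C4-2 ARv7 cells than in control cells (edgeR adjusted p = 0.015), and SLC38A7, a lysosomal glutamine exporter, did not pass in either line. SLC38A11, another orphan (chromosome 2, 164896186 to 164955525, minus strand), was found almost only after depletion. Its read counts were 17, 29 and 23 in the 22Rv-1 shARv7 libraries and 0 in all 3 shcontrol libraries, against 0 in the 3 C4-2 ARv7 libraries and 1 read in the C4-2 control libraries. Measured against a floor of 3 counts over the group it was at least 24.3-fold higher in shARv7 cells than in shcontrol cells (edgeR adjusted p = 1.47e-09). It is also the gene with the androgen response element letters shown above, and whether they have a part in its change was not tested.

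In the SLC1 family the neutral exchangers SLC1A4 and SLC1A5 fell in both lines, while the glutamate carriers SLC1A2 and SLC1A3 fell with ARv7 in C4-2 and rose after depletion in 22Rv-1. SLC1A5 (ASCT2), which exchanges glutamine for other neutral amino acids (chromosome 19, 46774883 to 46788594, minus strand), had 141, 131 and 123 CPM in C4-2 ARv7 libraries, against 192, 205 and 232 CPM in control libraries. No ARv7 library reached the controls (log2 change -0.68 ± 0.07 (SE), edgeR adjusted p = 9.9e-08). Depleted 22Rv-1 libraries had 140.1, 140.1 and 140.4 CPM, against 221, 214 and 197 CPM in shcontrol libraries, again apart (log2 change -0.58 ± 0.05 (SE), edgeR adjusted p = 3.8e-16). SLC1A4 (ASCT1), which carries alanine, serine and cysteine, had 65.5, 61.9 and 53.9 CPM with ARv7 and 81.7, 86.8 and 97.2 CPM in C4-2 control cells, 1.48-fold lower (edgeR adjusted p = 7.59e-06). It had 42.6, 46.4 and 45.7 CPM after depletion and 80.1, 72.4 and 82.8 CPM in 22Rv-1 shcontrol cells, 1.74-fold lower (edgeR adjusted p = 1.52e-16).

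SLC1A3 (EAAT1), a glutamate and aspartate carrier, had 4.47, 4.99 and 4.48 CPM in C4-2 ARv7 libraries, against 26.8, 28.1 and 25.3 CPM in control libraries. It was 5.79-fold lower with ARv7, with no overlap (log2 change -2.53 ± 0.13 (SE), edgeR adjusted p = 2.45e-12). In 22Rv-1, where it was low, it had 7.18, 5.36 and 4.82 CPM after depletion, against 2.47, 2.99 and 4.14 CPM in shcontrol libraries, and was higher without overlap (log2 change 0.85 ± 0.22 (SE), edgeR adjusted p = 0.000977). SLC1A2 (EAAT2), its relative best known from astrocytes, had read counts of 10, 6 and 9 in C4-2 ARv7 libraries, against 48, 38 and 41 in control libraries, a count ratio of 0.21 (0.131 to 0.325) with its exact 95% counting interval (edgeR adjusted p = 9.04e-06). In 22Rv-1 it had 15, 12 and 12 reads after depletion, against 1, 0 and 0 in shcontrol libraries, a ratio of 41.2 (6.97 to 1667) (edgeR adjusted p = 8.47e-06). That ratio rests on 1 read in shcontrol replicate 1, without which the shcontrol group had none. SLC1A1 (EAAT3), another glutamate carrier, did not pass in either line, with 95% intervals of the log2 change of -0.12 to 0.31 in C4-2 and -0.14 to 0.54 in 22Rv-1.

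The SLC6 symporters, which use sodium and chloride, held the largest fall among the 36 genes tested in C4-2. SLC6A12 (BGT1) carries betaine, an osmolyte, and GABA (chromosome 12, 190077 to 214570, minus strand). Its read counts were 0 in each C4-2 ARv7 library, against 832, 862 and 939 in control libraries, or 60.6, 63.5 and 72.9 CPM. Against a floor of 3 counts over the group it was at least 821-fold lower with ARv7 (edgeR adjusted p = 2.54e-16). In 22Rv-1 it was nearly absent in both groups, with 4, 4 and 9 reads after depletion and 3, 3 and 0 in shcontrol libraries, and was not tested. SLC6A13 (GAT2), which also carries GABA and taurine, lies 6050 bases from SLC6A12 on the same strand with no gene of the table between them. It had 2, 7 and 1 reads in C4-2 ARv7 libraries, against 36, 25 and 17 in control libraries, a count ratio of 0.137 (0.0632 to 0.266) (edgeR adjusted p = 8.14e-05). Most of its ARv7 reads were in replicate 2, without which the log2 change was -4.04, against -2.96 with it. SLC6A6 (TauT), the taurine carrier, had 6.51, 4.42 and 4.8 CPM in C4-2 ARv7 libraries, against 23.2, 23.4 and 22.4 CPM in control libraries, 4.4-fold lower without overlap (log2 change -2.14 ± 0.15 (SE), edgeR adjusted p = 1.97e-10). In 22Rv-1 it was at 108, 109 and 112 CPM after depletion and 119.9, 113 and 114 CPM in shcontrol cells and did not pass, with a 95% interval of the log2 change of -0.18 to 0.04.

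Other SLC6 genes moved less. SLC6A9 (GlyT1), a glycine carrier, had 80.8, 85.3 and 78.7 CPM in C4-2 ARv7 libraries, against 150.5, 161 and 176 CPM in control libraries, 2.01-fold lower without overlap (log2 change -1.01 ± 0.07 (SE), edgeR adjusted p = 1.74e-10). In 22Rv-1 it had 30.99, 37.7 and 35.9 CPM after depletion, against 64.1, 64.5 and 59.4 CPM in shcontrol libraries, 1.79-fold lower and also apart (log2 change -0.84 ± 0.08 (SE), edgeR adjusted p = 1.27e-15). SLC6A8, the creatine carrier, had small changes that followed ARv7. It had 187, 178 and 187 CPM in C4-2 ARv7 libraries, against 143, 157 and 170.0 CPM in control libraries, without overlap. Its 22Rv-1 levels were 101, 95.5 and 99.9 CPM after depletion, against 121, 114 and 100.0 CPM in shcontrol libraries. Its log2 change was 0.22 ± 0.07 (SE) with ARv7 in C4-2 (edgeR adjusted p = 0.00677) and -0.17 ± 0.06 (SE) after depletion in 22Rv-1 (adjusted p = 0.013). The 22Rv-1 groups of SLC6A8 overlapped, and that call was lost without shARv7 replicate 2 (adjusted p = 0.0768), without shcontrol replicate 1 (0.168) and with total counts (0.0741). SLC6A11 (GAT3), a GABA carrier, rose in 22Rv-1 to 21.5, 26.1 and 23.1 CPM after depletion, against 13.6, 13.8 and 13.7 CPM in shcontrol cells (edgeR adjusted p = 3.79e-09). In C4-2 SLC6A11 was at 46.02, 48.8 and 49.7 CPM with ARv7 and 39.4, 41.5 and 44.6 CPM in control cells (adjusted p = 0.0437), a call lost without ARv7 replicate 2 or 3 or control replicate 1 or 2 (0.114 to 0.148) and with DESeq2 (0.104). SLC6A15 (B0AT2), a carrier of branched-chain amino acids, was found in 22Rv-1, with 54.2, 55.8 and 51.3 CPM after depletion, against 32.5, 33.6 and 40.8 CPM in shcontrol libraries, higher without overlap (edgeR adjusted p = 1.86e-09). SLC6A17, a vesicular carrier of neutral amino acids, fell to 2.69, 2.64 and 2.17 CPM after depletion, against 6.99, 8.3 and 5.34 CPM in shcontrol libraries (edgeR adjusted p = 5.88e-08), and did not pass in C4-2, at 0.881, 1.57 and 0.719 CPM with ARv7 and 0.582, 0.958 and 0.777 CPM in control cells.

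Of the SLC36 genes, SLC36A1 and SLC36A4 were expressed. SLC36A1 (PAT1), a lysosomal proton symporter for glycine, alanine and proline, averaged 32.8 ± 3.02 CPM with ARv7 and 23.8 ± 1.85 CPM in C4-2 control cells (log2 change 0.46 ± 0.10 (SE), edgeR adjusted p = 0.000606) and did not pass in 22Rv-1. SLC36A4 (PAT4), which carries proline and tryptophan, had 15.2, 18.7 and 19.7 CPM in C4-2 ARv7 libraries, against 36.8, 37.5 and 31.1 CPM in control libraries, lower without overlap (log2 change -0.99 ± 0.11 (SE), edgeR adjusted p = 3.55e-07). The 22Rv-1 libraries had 23, 26 and 39 reads after depletion, against 17, 12 and 15 in shcontrol libraries, a count ratio of 2.11 (1.45 to 3.1) (edgeR adjusted p = 0.0151). That call was lost without shARv7 replicate 3 (adjusted p = 0.118), without shcontrol replicate 2 (0.0592) and with DESeq2 (0.0589).

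**Figure D4:**
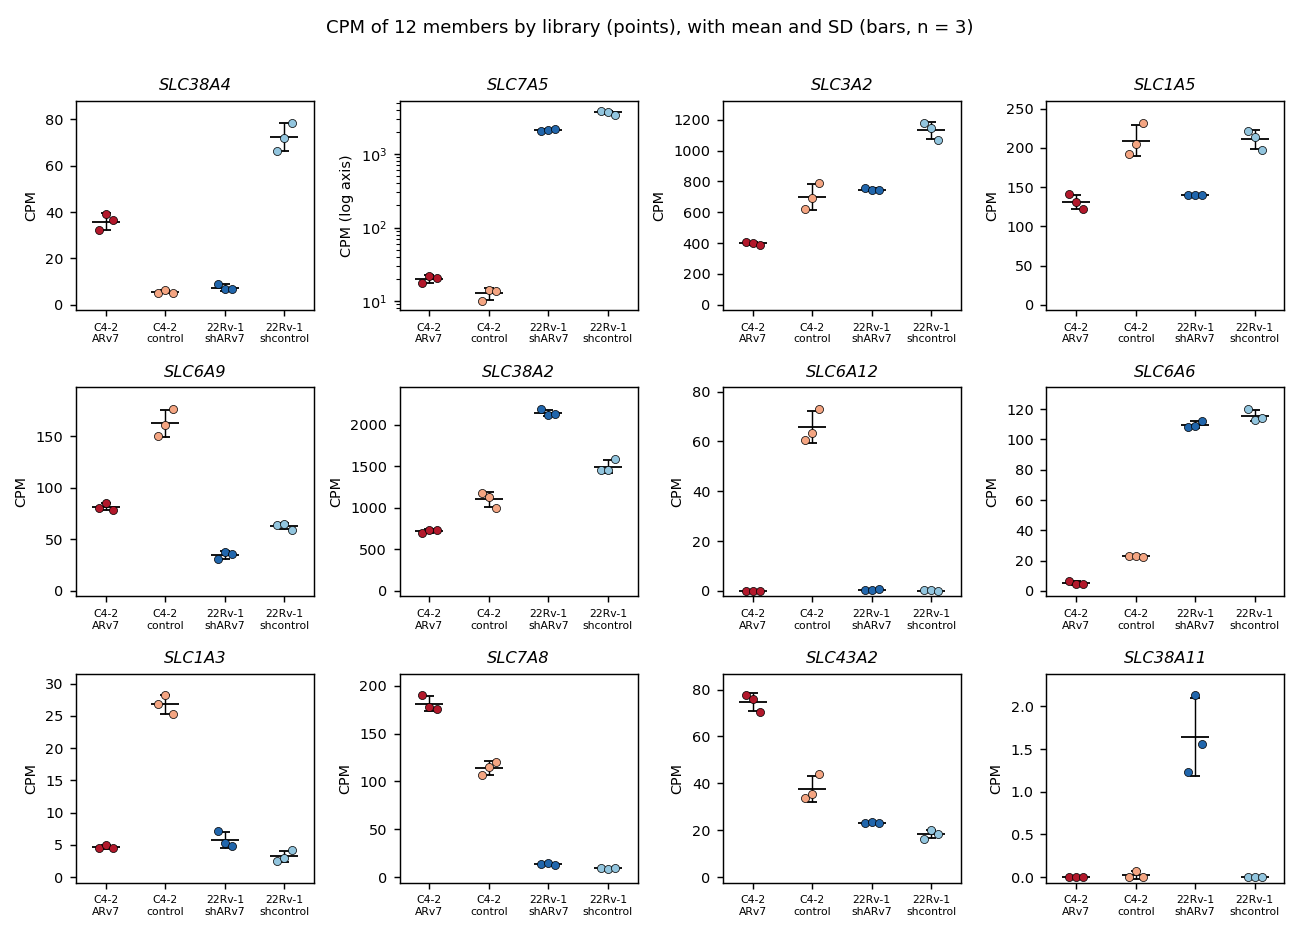
CPM of 12 transporter genes in each of the 12 libraries (points), with the mean and SD of each group of 3 (bars), C4-2 ARv7, C4-2 control, 22Rv-1 shARv7 and 22Rv-1 shcontrol from left to right, on a log axis for SLC7A5 only. SLC38A4 is high in the C4-2 ARv7 and 22Rv-1 shcontrol groups, SLC6A12 in the C4-2 control group alone, and SLC1A5 and SLC6A9 are lower in the first group of each line than in the second.

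Whether the change that goes with more ARv7 differed between the lines was tested in 1 fit of all 12 libraries, by setting the change with ARv7 in C4-2 (ARv7 minus control) against that in 22Rv-1 (shcontrol minus shARv7). Of 42 genes tested, 7 had a higher value in C4-2, 15 a lower value and 20 did not pass. Over all 14235 genes, 27.4% were higher and 23.3% lower. With total counts the median of all genes moved to 0.25, against 0.06 with TMM, 71.9% of all calls were higher, against 54.1%, and 10 transporters were higher and 13 lower. The genes that were lower in both comparisons, and those higher in both, necessarily went apart here. Among those lower in both, SLC6A9 had a difference of -1.84 ± 0.10 (SE, log2, edgeR adjusted p = 2.3e-17) and SLC3A2 one of -1.41 ± 0.09 (adjusted p = 1.76e-16). SLC7A5 did not pass, at -0.12 ± 0.12 with a 95% interval of -0.36 to 0.11 (adjusted p = 0.42). SLC38A2 did not pass either, at -0.09 ± 0.08 with an interval of -0.25 to 0.06. Without C4-2 control replicate 1 the SLC7A5 difference passed (-0.27, adjusted p = 0.044), as did that of SLC38A2 without C4-2 control replicate 3 (-0.17, adjusted p = 0.0151). SLC38A4 responded less in C4-2 than in 22Rv-1, with a difference of -0.60 ± 0.18 (adjusted p = 0.00615), a call lost with total counts (adjusted p = 0.0587).

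Of 40 tested between 22Rv-1 shcontrol and C4-2 control cells, 14 were higher in 22Rv-1, 19 lower and 7 did not pass, beside 42.7% of 13568 genes higher and 40.5% lower (83.2% in all). The transporters' share called was thus about that of all genes. With total counts the median of all genes moved to 0.17, against 0.04, and 16 transporters were higher and 19 lower. At least 2-fold changes numbered 9 higher and 17 lower, beside 24.6% and 19.3% of genes. Of the 40, 9 passed the expression filter through 1 group alone, where they are high, so they had to lean one way. SLC6A15, SLC6A3 and SLC38A3 were among these, each through 22Rv-1 shcontrol. Line and hairpin vector go together in this comparison and cannot be told apart, and its control libraries also serve the comparisons above. SLC7A5 was 292-fold higher in 22Rv-1 shcontrol than in C4-2 control cells (log2 change 8.19 ± 0.11, SE). SLC6A15 had 475, 450 and 611 reads in 22Rv-1 shcontrol libraries and none in C4-2 control libraries, at least 531-fold higher against a floor of 3 counts over the group. SLC6A3, the dopamine transporter, had 80, 35 and 52 reads in 22Rv-1 shcontrol and none in C4-2 control libraries, at least 57.8-fold higher. SLC38A3 (SNAT3), a glutamine carrier, had 51, 36 and 50 reads in 22Rv-1 shcontrol and 3, 0 and 0 in C4-2 control libraries. On the other side, SLC36A4 was 33.6-fold, SLC7A8 12.4-fold and SLC43A1 10.1-fold lower in 22Rv-1 shcontrol than in C4-2 control cells. SLC1A5 and SLC1A4 did not pass between the lines, with 95% intervals of the log2 change of -0.11 to 0.17 and -0.31 to 0.00. SLC1A5 passed with total counts (log2 change 0.16, adjusted p = 0.035), and SLC1A4 passed without C4-2 control replicate 1 (-0.22, adjusted p = 0.0156) or 22Rv-1 shcontrol replicate 3 (-0.20, adjusted p = 0.0487). SLC38A6 was 1.48-fold higher (adjusted p = 0.0289), a call lost without C4-2 control replicate 1 (adjusted p = 0.103), C4-2 control replicate 3 (0.0611) or 22Rv-1 shcontrol replicate 3 (0.209).

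**Figure D5:**
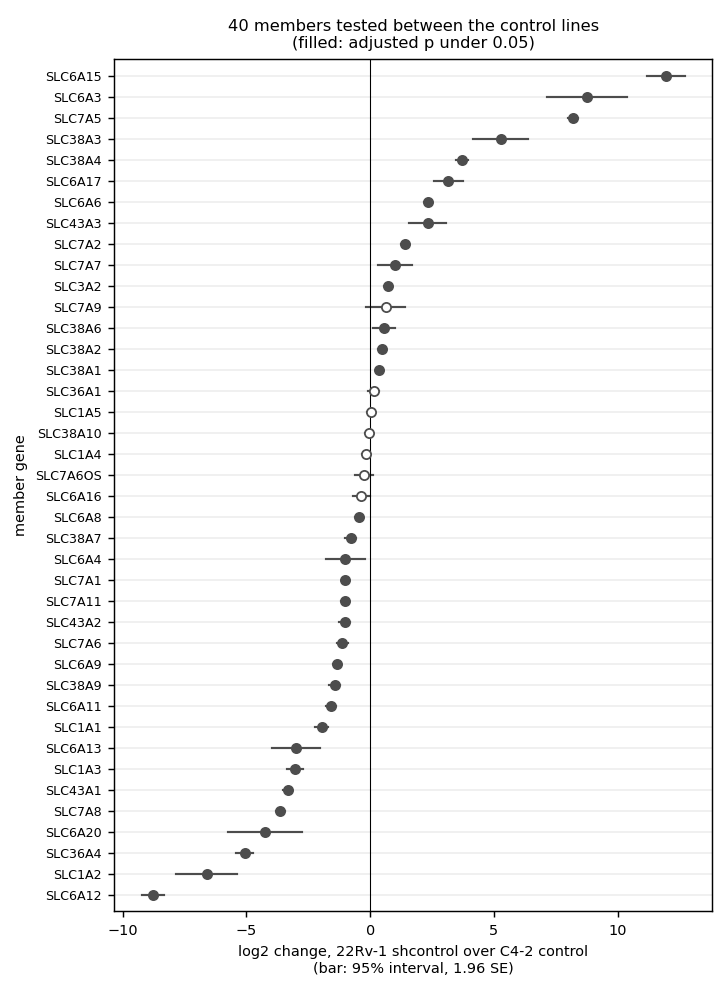
Log2 changes of the 40 genes tested between 22Rv-1 shcontrol and C4-2 control cells, ordered by size, with bars for the 95% interval and filled points for an edgeR adjusted p under 0.05. SLC6A15, SLC6A3 and SLC7A5 stand farthest to the right (higher in 22Rv-1) and SLC6A12 and SLC1A2 farthest to the left, while SLC1A4 and SLC1A5 lie near 0. The fitted sizes of SLC6A15 and SLC6A3, set against a group with no reads, depend on the prior count.

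Genes that work with the transporters were described from lists of other genes, beside all genes tested, of which 29.6% were higher and 29.5% lower in C4-2 and 23.9% higher and 24.1% lower in 22Rv-1. Of the 29 tested amino acid response genes (ATF4, kinases that act before it and genes it switches on when amino acids are short), 5 were higher and 17 lower with ARv7 in C4-2 (median log2 change -0.28). In 22Rv-1, 2 of 29 were higher and 20 lower after depletion (median -0.37). Both PSAT1 and PHGDH, which make serine, were lower in each comparison. PSAT1 averaged 766 ± 4.95 CPM with ARv7 and 1707 ± 72.5 CPM in C4-2 control cells, and 287 ± 3.35 CPM after depletion and 429 ± 17.1 CPM in 22Rv-1 shcontrol cells. PHGDH averaged 927 ± 32.98 CPM with ARv7 and 1971 ± 255 CPM in C4-2 control cells, and 226 ± 1.51 CPM after depletion and 419 ± 15.3 CPM in 22Rv-1 shcontrol cells. ATF4 itself was lower in both, by a log2 change of -0.38 in C4-2 (edgeR adjusted p = 1.99e-05) and -0.11 in 22Rv-1 (adjusted p = 0.0286). The genes that rose in C4-2 were ATF3, ALDH1L2, ATF5, EIF2AK2 and EIF2AK4, and those in 22Rv-1 were GDF15 and EIF2AK2. Of 20 aminoacyl-tRNA synthetases, which load amino acids onto tRNA, 3 were higher and 12 lower in each comparison, with medians of -0.25 in C4-2 and -0.17 in 22Rv-1.

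The counts of the next lists are also to be read beside those shares of all genes (29.6% higher and 29.5% lower in C4-2, 23.9% and 24.1% in 22Rv-1), to which several are close. Among 34 tested genes of mTORC1 amino acid sensing, 9 were higher and 13 lower with ARv7 in C4-2, and 7 higher and 12 lower after depletion in 22Rv-1. SESN3, a leucine-sensor relative, was at 799 ± 3.47 CPM with ARv7 and 506 ± 21.5 CPM in C4-2 control cells, and at 67.7 ± 0.832 CPM after depletion and 222 ± 18.1 CPM in 22Rv-1 shcontrol cells. It thus rose with ARv7 and fell after its depletion (edgeR adjusted p = 6.73e-09 and 3.59e-40). Transporters of amino acids and peptides in other families had 7 higher and 5 lower of 22 in C4-2, and 9 higher and 5 lower of 24 in 22Rv-1. SLC15A2, a peptide carrier, followed ARv7 in both, with 49.7 ± 1.0 CPM with ARv7 and 13.7 ± 1.02 CPM in C4-2 control cells, and 2.77 ± 0.833 CPM after depletion and 7.19 ± 0.737 CPM in 22Rv-1 shcontrol cells. Enzymes of glutamine, glutamate, aspartate and asparagine had 8 higher and 4 lower of 18 in C4-2, and 4 higher and 7 lower of 19 in 22Rv-1. GLUL, glutamine synthetase, fell in both, to 338 ± 4.98 CPM with ARv7, against 798 ± 52.4 CPM in C4-2 control cells, and to 45.8 ± 2.96 CPM after depletion, against 68.7 ± 0.872 CPM in 22Rv-1 shcontrol cells. Branched-chain amino acid breakdown had 7 higher and 2 lower of 14 in C4-2, and 5 higher and 2 lower of 14 in 22Rv-1. MCCC2, a leucine breakdown enzyme, rose with ARv7 to 416 ± 1.42 CPM, against 269 ± 7.42 CPM in C4-2 control cells, and fell after depletion to 373 ± 11.1 CPM, against 573 ± 6.51 CPM in 22Rv-1 shcontrol cells. The cystine and glutathione list had 5 higher and 7 lower of 14 in C4-2 and 4 higher and 2 lower of 14 in 22Rv-1. Osmolyte control had 9 higher and 5 lower of 19 in C4-2 and 5 higher and 8 lower of 19 in 22Rv-1. Partners and regulators of the transporters had 2 higher and 5 lower of 11 in C4-2, and 7 higher and none lower of 12 in 22Rv-1, where BSG, a chaperone of carriers at the surface, was at 556 ± 4.99 CPM after depletion and 412 ± 6.66 CPM in shcontrol cells. Creatine, GABA and monoamine genes had 4 higher and 2 lower of 13 in C4-2 and 1 higher and 4 lower of 11 in 22Rv-1, with CKB, a creatine kinase, at 862 ± 9.69 CPM with ARv7 and 467 ± 64.2 CPM in C4-2 control cells, and at 1259.5 ± 29.8 CPM after depletion and 2683 ± 145 CPM in 22Rv-1 shcontrol cells.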

How the data were processed

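RNA of 12 libraries, 3 per group, was sequenced. Per the labels' protocols, cells were plated in triplicate dishes and lysed, and reads were trimmed with cutadapt 2.7. Neither labels nor notes name the aligner, counter, annotation or strand setting (not given in the sources used here). The submitters' processing notes name hg18, but all 60 genes lie within 10000 bp of their GENCODE 29 positions on GRCh38, so coordinates are given as GRCh38. The deposited table holds raw read counts per gene and FPKM values made by the authors. All 184320 FPKM values above 0 equalled the count divided by gene length and total count, within a relative tolerance of 0.001. The table has 19974 lines, of which 1 has no gene ID and was left out.

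Groups came from the labels. Each comparison was fitted on its own 6 libraries, and the comparison of responses on all 12, with edgeR 4.0.16 (R 4.3.3) over all genes passing filterByExpr, with TMM factors, the two-sided quasi-likelihood test and Benjamini-Hochberg adjustment over all genes tested at 0.05. Log2 changes carry their SE, and 95% intervals are normal intervals from that SE. Folds against a group at 0 use a floor of 3 counts over the group (3 counts are 0.204 to 0.243 CPM in a library). Count ratios use total counts and exact 95% intervals, which cover counting error only. The scripts were tested on simulated data. Alternatives were other scalings, other filters, DESeq2 1.42.0, limma 3.58.1 on log2(FPKM + 1), 1 fit of all 12 libraries, leaving out each library, and a block for the replicate number.

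The genes, the 10 lists of related genes and the tests were chosen with earlier results of these data known. Values per library are given for genes past the threshold with an absolute log2 change of at least 1 and a group mean of at least 1 CPM in a line, for those past it in both lines, and for SLC6A12, SLC38A4, SLC7A5 and SLC3A2. SLC6A15, SLC38A9, SLC36A1, SLC6A3 and SLC38A3 were named after their values were seen. From other lists, genes with the smallest adjusted p and those moving against the rest were named. Promoter sequences are from RefSeq (GRCh38.p14). Some genes, a check of the targeted gene among them, are not reported here.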

Additional observations from a re-analysis of the deposited data

Results flagged for a closer look

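The response to more ARv7 differed between the lines for 19 of the 26 genes named by the rule for values per library. That rule favours large changes and calls in both lines, so 19 is not a rate for the families. In this test 50.7% of all 14235 genes passed, and of the 42 genes of the families tested 7 were higher and 15 lower. Each value is the log2 change with ARv7 in C4-2 minus that in 22Rv-1, from the interaction term of the edgeR fit of all 12 libraries (adjusted p under 0.05 over all genes tested). For genes lower in both comparisons or higher in both, the changes of the lines add up here. The direction of their difference was thus fixed by how they were grouped. Among genes lower in both comparisons the difference was -1.84 for SLC6A9, -1.49 for SLC7A2, -1.41 for SLC3A2, -1.36 for SLC1A4, -1.26 for SLC1A5, -0.90 for SLC7A1, -0.86 for SLC38A1 and -0.41 for SLC7A11. Among genes higher in both it was 1.34 for SLC43A2, 1.27 for SLC7A8, 0.99 for SLC6A11 and 0.58 for SLC43A1. Genes that moved in opposite directions differed in size, by -1.68 for SLC1A3 and -0.60 for SLC38A4. The difference was -2.20 for SLC6A6 and 1.26 for SLC38A6, which passed in C4-2 and did not pass in 22Rv-1. For genes tested in 1 line only it was -2.80 for SLC6A13, -3.58 for SLC43A3 and -11.36 for SLC6A12, whose fitted size depends on the prior count because the C4-2 ARv7 libraries had no reads. SLC43A3, too low to test in C4-2 alone, had 1, 2 and 0 reads in C4-2 ARv7 and 7, 4 and 8 in C4-2 control libraries. The SLC6A13 call was lost without C4-2 ARv7 replicate 1 or 3, C4-2 control replicate 1, 22Rv-1 shARv7 replicate 2 or 22Rv-1 shcontrol replicate 2 (adjusted p from 0.0515 to 0.211), and SLC7A11 was lost with limma (0.115). Without C4-2 ARv7 replicate 2 the difference was -3.88 for SLC6A13 and -4.42 for SLC43A3.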

How the results depend on the processing

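Of the results for named genes, 1427 kept their side of the threshold, 36 fell below it and 14 passed it. These numbers leave out fits in which a gene was no longer tested, as happened to low genes with limma or a mean of at least 5 CPM. Among the 1427, results past the threshold kept their direction, but those not past it could change sign. The difference between the lines of SLC36A4 turned from 0.04 to -0.45 with limma on log2(FPKM + 1) (adjusted p = 0.0053); the cause was not tested. Of the counts, 238 stayed within 1.5 times the reported value. With limma, which tested fewer genes, 2237 genes were lower in C4-2 (3776 with edgeR), 6 transporters were higher in 22Rv-1 (10 with edgeR) and 2097 genes were lower in the comparison of responses (3314 with edgeR), against 2073 with total counts. With a mean of at least 5 CPM, fewer genes were tested, and 6 transporters were higher in 22Rv-1 and 8 between the control lines (14 in the reported fit). Leaving out each library gave 9 to 10 transporters higher and 16 to 19 lower in C4-2, 9 to 12 and 11 to 13 in 22Rv-1, 13 to 15 and 18 to 20 between the control lines, and 6 to 9 and 14 to 16 in the comparison of responses. Same-numbered libraries did not deviate together (correlations of -0.201 to 0.015), and the reported fits used no pairing. Whether same-numbered dishes were handled together cannot be told from these correlations. With a replicate block, 9 transporters were higher and 18 lower in C4-2, 10 and 13 in 22Rv-1, 13 and 18 between the control lines, and 7 and 15 in the comparison of responses. Depth limits genes near 0.204 to 0.243 CPM, the level of 3 counts, where a change was not detectable.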
